A study of Homo sapiens with 12 samples.

Results

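The glycolysis and pentose phosphate genes described here are 31 in number. They comprise 17 glycolytic enzymes, 4 membrane transporters for glucose and lactate, 2 pyruvate dehydrogenase kinases and 8 enzymes of the pentose phosphate pathway. They were taken as a list of gene symbols and matched to Ensembl identifiers in the deposited count tables, which together list 33704 genes. All 31 had an entry in the UTX-labelled and GSK-J4 tables and 30 in the TAL1-labelled table, which does not list TKTL2. After the filter on low counts 30 members were tested in each comparison, and TKTL2 was tested in none, with at most 1 read in any library.

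Messenger RNA was sequenced from Jurkat, an established human leukaemia line of T-cell origin that expresses the transcription factor TAL1, in 12 libraries forming 6 groups of 2. TAL1-control and TAL1-KD are Jurkat cells with an shRNA against TAL1 that doxycycline switches on, grown without doxycycline or with 5 µg/ml for 72 h. UTX-control and UTX-KD are the same with an shRNA against UTX, the product of KDM6A, which removes methyl groups from lysine of histone H3. All 4 of these groups were grown in Tet-free serum with blasticidin and G418. J4-control and J4-2uM are Jurkat cells in ordinary serum without those antibiotics, given DMSO or 2 µM GSK-J4, an inhibitor of KDM6 demethylases, for 72 h. The uninduced controls received no doxycycline, so an effect of the drug itself and of the shRNA cannot be told apart. Whether replicates came from separate cultures, or a line from 1 clone, is not in the labels, so the p-values cover the spread of the samples given, and that spread may be a technical one.

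Glycolysis splits glucose into pyruvate in the cytosol and yields ATP. Proliferating T cells and T-cell leukaemias are known for turning much of that pyruvate into lactate, which leaves the cell through monocarboxylate transporters, and pyruvate dehydrogenase kinases hold pyruvate back from the mitochondria. The pentose phosphate pathway draws sugar phosphates from the top of glycolysis, makes NADPH and ribose phosphate for nucleotides, and returns the surplus through transketolase and transaldolase. Many genes of glycolysis are textbook targets of the hypoxia-inducible factor HIF1 and of MYC.

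The targeted mRNAs were examined first. TAL1 differed by -0.07 on the log2 scale between TAL1-KD and TAL1-control (95% interval -0.27 to 0.13, adjusted p = 0.490), and KDM6A by -0.08 between UTX-KD and UTX-control (-0.17 to 0.0036, adjusted p = 0.103). Neither was shown to be lower, so those libraries are called TAL1-labelled and UTX-labelled throughout. Counted reads per library ranged from 55524079 to 82534711, and the 31 members held 0.973% to 2.09% of them. Replicates spread most in the TAL1-labelled libraries, with a biological coefficient of variation of 8.40%, against 2.30% in the UTX-labelled and 2.69% in the GSK-J4 libraries. Of 12 T-cell markers 11 were matched, and 10 stood at 1 CPM (reads of a gene relative to a library's scaled total) or more in every library, with TRBC1 at most at 0.0870. Of 14 markers of other cell types 12 were matched, and only CD79A, COL1A1 and, with GSK-J4, KRT8 reached 1 CPM. The summed level of those 12 was 81.1 and 81.8 CPM in TAL1-control and 72.1 and 76.4 in TAL1-KD, 44.0 and 45.3 in UTX-control and 63.3 and 61.7 in UTX-KD, and 43.3 and 43.4 in J4-control and 96.5 and 88.5 in J4-2uM, most of it CD79A. The part of these markers in the results below was not tested. In bulk RNA, fewer cells of a type and less RNA per cell cannot be told apart.

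The promoters of the 5 members that were lower in the most comparisons, ranked by their mean log2 fold change, are printed because the core letters of a hypoxia response element (ACGTG or GCGTG) and the E box read by MYC and its partners (CACGTG) can be looked for in them. Each is the RefSeq window of GRCh38.p14 from 250 bases before to 50 after the most upstream start of the gene, on the plus strand, and capitals mark ACGTG or GCGTG on either strand. The windows are chr17:82228185-82228484 for SLC16A3, chr11:18394313-18394612 for LDHA, chr2:172555123-172555422 for PDK1, chr10:3067720-3068019 for PFKP and chr2:74833877-74834176 for HK2.
SLC16A3: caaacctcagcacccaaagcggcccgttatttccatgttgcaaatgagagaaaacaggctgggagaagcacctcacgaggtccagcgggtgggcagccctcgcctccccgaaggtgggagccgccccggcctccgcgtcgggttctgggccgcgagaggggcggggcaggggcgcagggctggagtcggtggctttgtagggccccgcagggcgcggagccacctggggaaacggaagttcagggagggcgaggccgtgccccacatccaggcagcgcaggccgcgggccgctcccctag
LDHA: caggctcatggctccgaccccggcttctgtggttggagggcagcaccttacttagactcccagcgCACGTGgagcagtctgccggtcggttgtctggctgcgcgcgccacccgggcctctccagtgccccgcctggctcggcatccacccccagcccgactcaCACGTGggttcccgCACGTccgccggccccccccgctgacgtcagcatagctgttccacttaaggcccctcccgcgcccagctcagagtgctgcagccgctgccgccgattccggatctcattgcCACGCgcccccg
PDK1: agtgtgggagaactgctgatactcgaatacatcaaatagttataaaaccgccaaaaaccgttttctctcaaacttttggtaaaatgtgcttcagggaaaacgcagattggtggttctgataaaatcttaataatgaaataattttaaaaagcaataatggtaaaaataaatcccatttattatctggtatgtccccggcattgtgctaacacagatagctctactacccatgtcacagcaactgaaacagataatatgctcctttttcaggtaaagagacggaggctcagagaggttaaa
PFKP: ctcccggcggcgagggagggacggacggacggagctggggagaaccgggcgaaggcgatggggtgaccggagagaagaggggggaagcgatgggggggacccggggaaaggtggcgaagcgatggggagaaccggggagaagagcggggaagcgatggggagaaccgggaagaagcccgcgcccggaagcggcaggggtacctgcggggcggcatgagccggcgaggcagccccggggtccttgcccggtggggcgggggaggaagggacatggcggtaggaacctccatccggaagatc
HK2: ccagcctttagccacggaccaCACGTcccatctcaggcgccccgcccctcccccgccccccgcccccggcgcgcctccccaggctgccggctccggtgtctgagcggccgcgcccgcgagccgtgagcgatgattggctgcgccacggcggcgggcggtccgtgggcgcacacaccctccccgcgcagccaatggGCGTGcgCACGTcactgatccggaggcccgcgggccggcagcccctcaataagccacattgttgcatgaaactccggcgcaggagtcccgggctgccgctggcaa

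The LDHA window held 5 matches to ACGTG, 4 of them from 2 copies of CACGTG, which reads as ACGTG on both strands, and 1 match to GCGTG. HK2 held 2 matches to ACGTG and 1 to GCGTG, and the windows of SLC16A3, PDK1 and PFKP held none of these motifs. RefSeq has 5 start windows for SLC16A3, 4 for PFKP and 2 each for LDHA, PDK1 and HK2, and only the most upstream was searched. RefSeq windows were found for 29 of the 31 members, not for SLC2A3 or SLC16A1. ACGTG or GCGTG was in 18 of the 29 (62.1%), against 48.4% of 27305 windows of the same length in all genes. CACGTG was in 4 of the 29 (13.8%), those of LDHA, ALDOC, GAPDH and TKTL2, against 7.41% of all. A match is a description of letters only, and the RNA data do not measure binding there.

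Levels below are CPM scaled by TMM over all 12 libraries, and RPKM, the same per kilobase of the longest transcript, where 1 gene is set beside another. On the RPKM scale the members spanned a wide range. GAPDH, which oxidises glyceraldehyde phosphate, had the highest level of the members in every group, 2748 ± 29.2 RPKM (SD, n = 2) in J4-control. ENO1, the main enolase, followed there at 944 ± 32.9, and LDHA, PKM and LDHB, at 663 ± 24.0, 655 ± 12.2 and 650.3 ± 4.47, differed by less than their spread. In the pentose phosphate branch PGD stood highest in J4-control at 197 ± 0.173 RPKM, then TALDO1 at 142 ± 0.634 and TKT at 83.8 ± 1.14. In CPM TKT stood highest of the branch there, at 611, with PGD at 371 and TALDO1 at 191. The longest TKT transcript has 7286 bases and the mean over its transcripts is 2029, so the place of TKT depends on the length used. TKTL1, a transketolase-like gene, was at 2.44 ± 0.118 RPKM and PFKM, the muscle phosphofructokinase, at 1.54 ± 0.0681. The spread of 2 libraries is itself a rough estimate.

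The 3 control groups did not start from the same levels. Summed over the 17 glycolytic enzymes, the level was 9528 and 10849 CPM in TAL1-control, 17237 and 18298 in UTX-control and 18558 and 17981 in J4-control. Both TAL1-control libraries lay below all 4 other control libraries for 14 of the 17 glycolytic enzymes and for 25 of the 30 members tested, against 33.1% of 16103 genes tested in all 3 comparisons. They lay above them for PFKL, ENO2 and TKTL1, 3 of 30 members, against 37.1% of genes. Within TAL1-control, replicate 1 was below replicate 2 in 29 of 30 members, against 55.3% of all those genes. The shRNA line, the medium and the table differ together between these groups, so their parts cannot be told apart, and no test was made across them.

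In the GSK-J4 comparison nearly the whole glycolytic chain was lower in treated cells. Of the 30 members tested, 25 were lower and 4 higher at an adjusted p under 0.05, with RPE alone not called. The background was high, since 36.9% of all 17907 genes tested were called lower and 37.9% higher. By size, 16 members were lower by at least 1 on the log2 scale, against 9.04% of all genes, and 1 was higher by that much, against 9.88%. The median log2 fold change was -1.12 over the members and 0.01 over all genes tested. By role, 15 of 17 glycolytic enzymes, 3 of 4 transporters, both pyruvate dehydrogenase kinases and 5 of 7 tested pentose phosphate enzymes were lower, with medians of -1.21, -1.33, -1.13 and -0.79. The 4 higher members were ENO2, PFKM, SLC2A3 and TKTL1.

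In the UTX-labelled comparison the members moved in 1 direction. Of 30 tested, 26 were lower and none was higher, against 25.3% lower and 25.2% higher of 16847 genes. SLC2A3, PFKM, PGLS and TALDO1 were not called. Of the 26, 8 were lower by at least 1 on the log2 scale, against 1.02% of all genes, and 16 by at least 0.5, against 3.92%. The median was -0.60 over the members and 0.01 over all genes. The count of 0 higher members came from edgeR. None was higher by at least 1 on the log2 scale, against 1.77% of all genes. Without adjustment 0 members were higher at a p under 0.05, against 28.0% of all genes. The Wald test of DESeq2 called 0 as well, against 19.2% of all genes it tested. Scaling by total counts alone called PGLS and TALDO1 higher, at 0.15 and 0.08.

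In the TAL1-labelled comparison the members did not move together. Of 30 tested, 9 were higher and 6 lower, against 26.3% higher and 27.9% lower of 16829 genes, so the counts were close to the background. Scaling by total counts alone turned the split to 7 higher and 8 lower, with 18% of all genes then higher and 32.7% lower. By size, 2 members were lower by at least 1 on the log2 scale and 1 was higher, against 10.5% and 4.16% of all genes. The median was 0.13 over the members and -0.02 over all genes. The higher members were ALDOA, GAPDH, PGAM1, LDHB, SLC2A3, SLC16A1, PGD, TKT and TALDO1, and the lower ones PFKP, LDHA, SLC16A3, PDK1, PGLS and TKTL1. The count of higher members was 4 without TAL1-control replicate 1, 5 without TAL1-control replicate 2, 17 without TAL1-KD replicate 1 and 14 without TAL1-KD replicate 2, with the lone library assumed to vary like the other group. The shares of all genes called higher under these 4 settings were 14.1%, 15.2%, 33.5% and 29.7%. At an unadjusted p under 0.05, 12 members were higher and 8 lower, against 29.2% and 31.2% of all genes.

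Total-count scaling moved the median of all genes from -0.02 to -0.17 in the TAL1-labelled comparison, from 0.01 to 0.10 in the UTX-labelled one and from 0.01 to 0.18 with GSK-J4. No member called in these 3 comparisons changed sign under it.

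**Figure D1:**
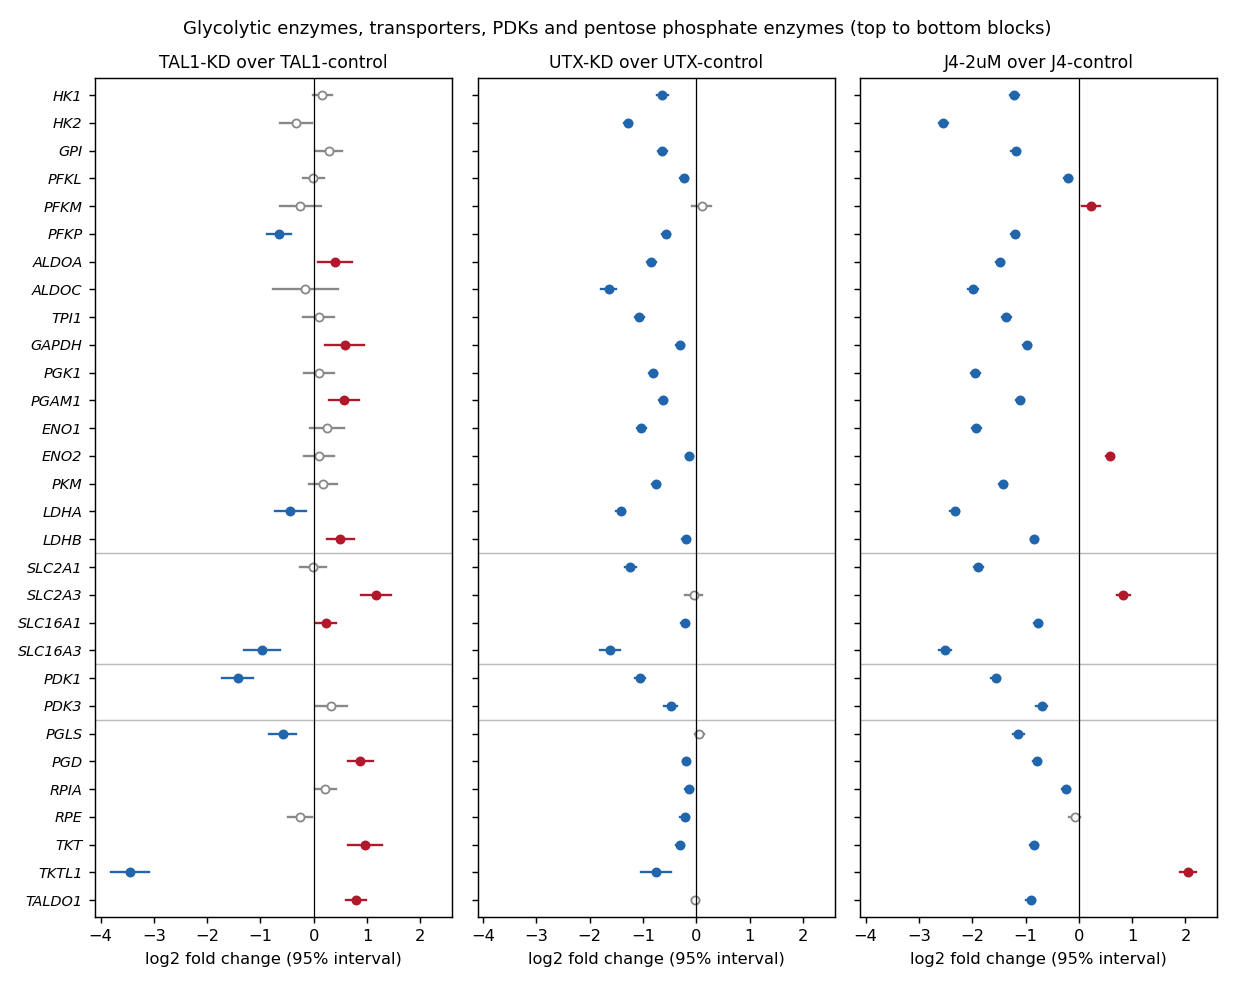
Log2 fold change of each tested member (rows, by role) in the TAL1-labelled, UTX-labelled and GSK-J4 comparisons, with 95% intervals on the horizontal axis. Filled red and blue points are higher and lower at an adjusted p under 0.05 and open points are not called. The UTX-labelled panel has 26 blue points and no red one, and the GSK-J4 panel has 25 blue and 4 red.

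The upper part of glycolysis traps glucose in the cell and splits it. Hexokinase makes the first phosphate ester, and HK2 (ENSG00000159399) is the isozyme known for its induction in proliferating and hypoxic cells. HK2 stood at 170.3 and 163 CPM in J4-control and at 28.9 and 28.0 in J4-2uM, the largest fall among the glycolytic enzymes, 5.84-fold (log2 fold change -2.55 ± 0.04 SE, adjusted p = 1.48e-14). It stood at 113 and 123 CPM in UTX-control and at 49.8 and 48.9 in UTX-KD. That is a 2.43-fold fall (-1.28 ± 0.04, adjusted p = 1.01e-13), and in neither comparison did treated and control libraries overlap. In the TAL1-labelled libraries HK2 stood at 47.4 and 62.0 CPM against 45.8 and 42.6, a difference of -0.33 ± 0.13 that was not called (adjusted p = 0.0642). It passed under total counts (-0.47, adjusted p = 0.0299) and with a replicate block (-0.32, adjusted p = 0.00756). The value stayed negative when each library was left out, at -0.51 without TAL1-control replicate 1, -0.37 without TAL1-KD replicate 1 and -0.27 without TAL1-KD replicate 2. HK1, the more widely expressed hexokinase, was lower by less, with log2 fold changes of -1.21 ± 0.04 with GSK-J4 and -0.64 ± 0.05 in the UTX-labelled comparison.

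The next enzyme changed in the same 2 comparisons. GPI, the glucose phosphate isomerase, changed by -1.19 with GSK-J4 and by -0.64 in the UTX-labelled comparison, and by 0.28 (adjusted p = 0.0531) in the TAL1-labelled one. Phosphofructokinase, which commits sugar to glycolysis, is made from 3 genes that did not behave alike. PFKP, the platelet form, stood at 339 and 334 CPM in J4-control and 148 and 143 in J4-2uM. It was lower in all 3 comparisons, with log2 fold changes of -1.20 ± 0.03 with GSK-J4 (adjusted p = 3.49e-12), -0.57 ± 0.03 in the UTX-labelled (4.51e-10) and -0.66 ± 0.10 in the TAL1-labelled comparison (0.00150). The liver form PFKL changed by -0.20 with GSK-J4 and -0.22 in the UTX-labelled comparison, which both passed the test. PFKM stood at 5.36 and 5.70 CPM in J4-control and 6.44 and 6.45 in J4-2uM, a log2 fold change of 0.22 ± 0.08 that was called (adjusted p = 0.0192), and it was not called in the UTX-labelled (0.10) or TAL1-labelled comparison (-0.25). The GSK-J4 call was lost in the Wald test of DESeq2 (adjusted p = 0.184) and without J4-control replicate 1 (0.163), while PFKL lost its GSK-J4 call under total counts (-0.03).

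Aldolase cleaves the hexose, and ALDOA and ALDOC were both lower with GSK-J4, at -1.48 ± 0.04 and -1.99 ± 0.04. ALDOA was also lower in the UTX-labelled comparison, at -0.84 ± 0.04, and higher in the TAL1-labelled one, at 758 and 906 CPM against 559 and 682 (0.40 ± 0.13, adjusted p = 0.0378). With only 1 control library left the call was lost though the value stayed positive, at 0.26 without TAL1-control replicate 1 (adjusted p = 0.415) and 0.55 without replicate 2 (0.0619), and under total counts it was 0.25 (0.0695). ALDOC, the brain aldolase, stood at 99.4 and 123 CPM in UTX-control and 36.7 and 35.3 in UTX-KD. At -1.64 ± 0.07 (adjusted p = 5.15e-12) it was the largest fall of any member in that comparison. Its TAL1-labelled libraries, at 67.7 and 107 CPM against 59.6 and 98.7, overlapped, and the difference of -0.16 ± 0.26 was the least precise of all members there.

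The lower part of the pathway, from triose phosphates to pyruvate, holds the most abundant members. TPI1, which interconverts the triose phosphates, changed by -1.36 with GSK-J4 and -1.07 in the UTX-labelled comparison. GAPDH stood at 5192 and 5114 CPM in J4-control and at 2714 and 2514 in J4-2uM, a fall of -0.97 ± 0.04 (adjusted p = 6.37e-11). In the UTX-labelled libraries it stood at 5061 and 5286 CPM against 4306 and 4189.7, a smaller fall of -0.31 ± 0.04 (adjusted p = 1.56e-06). GAPDH is often used as a reference gene, and here its level differed between treated and control libraries in each comparison. Its level was higher in the TAL1-labelled libraries, 5374 and 6691 CPM against 3776 and 4173 (0.58 ± 0.16, adjusted p = 0.0172), and with only 1 control library left the value stayed at 0.51 or 0.65 without passing the test (adjusted p = 0.254 and 0.123).

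PGK1, which makes the first ATP of the pathway, and ENO1 were among the strongest falls with GSK-J4, at -1.94 ± 0.04 and -1.92 ± 0.04. ENO1 (ENSG00000074800) stood at 2464 and 2346 CPM in J4-control and at 650.1 and 612 in J4-2uM, and at 2259 and 2453 in UTX-control against 1196 and 1137 in UTX-KD. PKM, the pyruvate kinase, changed by -1.42 and -0.76 in those comparisons, and PGK1 by -0.80 in the UTX-labelled one. PGAM1, the phosphoglycerate mutase, was lower there, at -1.10 and -0.62, and higher by 0.57 ± 0.12 in the TAL1-labelled comparison (adjusted p = 0.00623). TPI1, PGK1, ENO1 and PKM were not called in the TAL1-labelled comparison, with log2 fold changes of 0.09, 0.10, 0.25 and 0.18.

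ENO2, the neuronal enolase, parted from ENO1. It stood at 418 and 403 CPM in J4-control and 607 and 613 in J4-2uM, a rise of 0.58 ± 0.03 (adjusted p = 2.94e-09) with no overlap. In the UTX-labelled libraries it was 316 and 331 CPM against 303 and 295, a fall of -0.13 ± 0.03 (adjusted p = 0.00177) that was lost under total counts (-0.04) and without UTX-control replicate 2 (-0.10). In the TAL1-labelled libraries, 553 and 580.5 against 545 and 683 CPM, the groups overlapped.

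Lactate dehydrogenase ends the chain, LDHA with a preference for making lactate and LDHB for the reverse. LDHA (ENSG00000134333) stood at 1644 and 1562 CPM in J4-control and at 329 and 308 in J4-2uM, a 5.02-fold fall (-2.33 ± 0.04, adjusted p = 6.32e-14). It stood at 1445 and 1564 CPM in UTX-control and at 565 and 577 in UTX-KD, a 2.68-fold fall (-1.42 ± 0.04, adjusted p = 1.42e-14). The groups lay far apart in both. In the TAL1-labelled libraries, from a lower start, it went from 415 and 525 CPM to 341 and 366 (-0.44 ± 0.12, adjusted p = 0.0202). That call was lost once trends with GC content and length were removed (-0.31, adjusted p = 0.0603) and without TAL1-control replicate 2 (-0.26, adjusted p = 0.342). LDHB changed less, by -0.83 ± 0.03 with GSK-J4 and -0.19 ± 0.03 in the UTX-labelled comparison. In the TAL1-labelled one it was higher by 0.50 ± 0.11 (adjusted p = 0.00675). Without either TAL1-control library that value was 0.47 or 0.53 and did not pass (adjusted p = 0.128 and 0.0731).

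**Figure D2:**
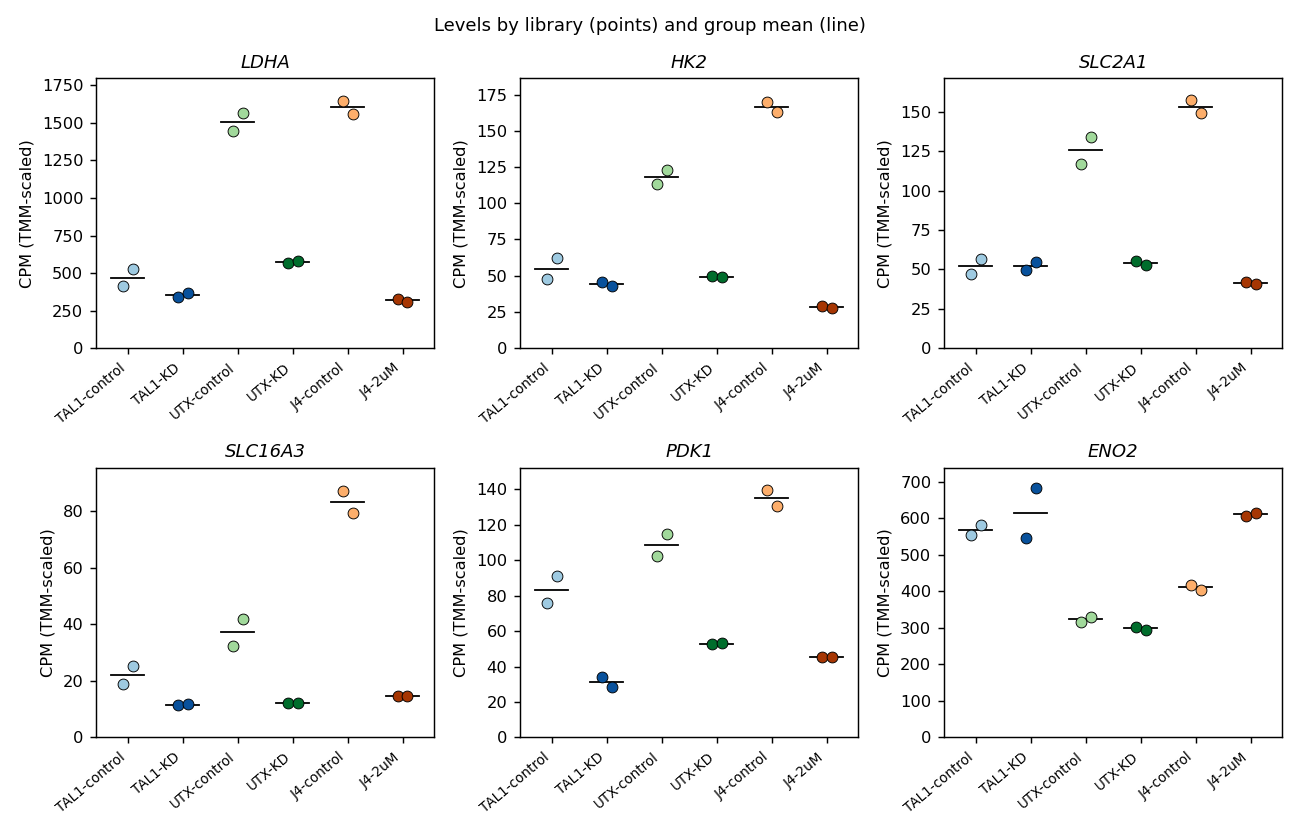
TMM-scaled CPM per library (points) and group mean (line) of LDHA, HK2, SLC2A1, SLC16A3, PDK1 and ENO2 in the 6 groups. LDHA, HK2, SLC2A1, SLC16A3 and PDK1 lie lower in UTX-KD and J4-2uM than in their controls, while ENO2 is higher in J4-2uM, at 607 and 613 CPM.

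Summed over the 17 enzymes, the level went from 18558 and 17981 CPM to 7810.1 and 7395 with GSK-J4 and from 17237 and 18298 to 11798 and 11417 in the UTX-labelled libraries. In the TAL1-labelled libraries it went from 9528 and 10849 CPM to 12030.0 and 14254, a sum in which GAPDH alone is 5374 and 6691. The sums are weighted by the abundant genes and carry no test.

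**Figure D3:**
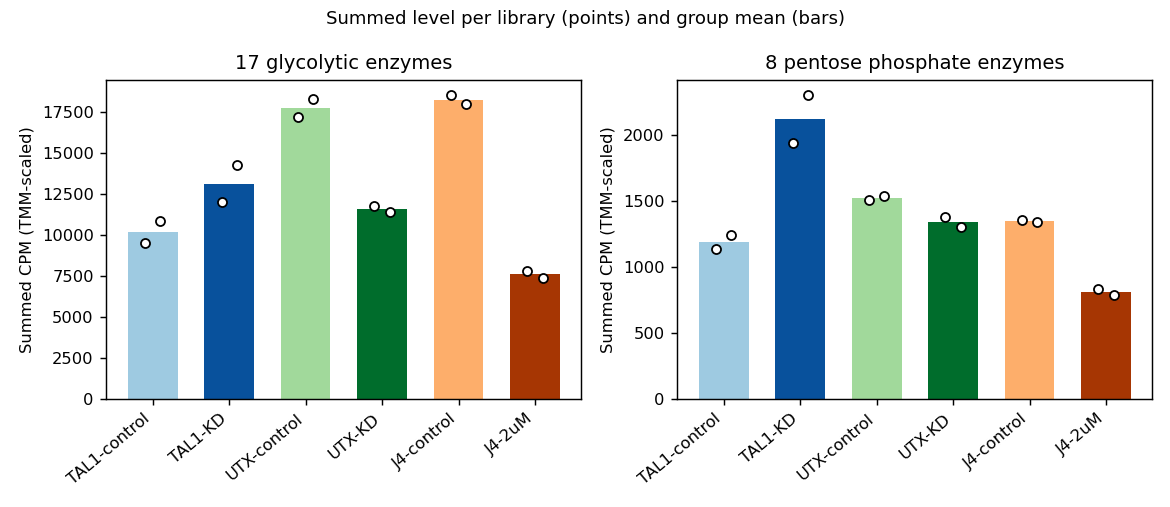
TMM-scaled CPM summed over the 17 glycolytic enzymes (left) and the 8 pentose phosphate enzymes (right) in each library (points), with group means as bars. Both sums are lower in J4-2uM than in J4-control, and the pentose phosphate sum is highest in TAL1-KD, at 1947 and 2308 CPM.

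The isozymes of a step changed by unequal amounts in most cases, which the share of 1 gene in its pair shows. LDHA was 51.3% and 49.7% of the LDHA and LDHB level per kilobase in J4-control and 26.8% and 26.4% in J4-2uM. The share went from 44.6% and 46.8% to 26.1% and 26.9% in the UTX-labelled libraries and from 30.1% and 34.1% to 20.5% and 19.3% in the TAL1-labelled ones, so the LDHA share was lower in the treated libraries of all 3. HK2 went from 44.9% and 45.0% of both hexokinases to 24.2% and 24.8% with GSK-J4, and from 42.0% and 41.3% to 30.7% and 32.1% in the UTX-labelled libraries. ENO2 rose as a share of enolase, from 13.3% and 13.4% to 45.7% and 47.4% with GSK-J4. In the UTX-labelled libraries that share went from 11.2% and 10.8% to 18.6% and 18.9% though ENO2 itself was slightly lower, since ENO1 fell by more. In TAL1-control ENO2 made 39.2% and 34.7% of enolase and in TAL1-KD 32.4% and 36.0%, which overlap. PFKP went from 77.3% and 77.7% of phosphofructokinase to 63.5% and 62.4% with GSK-J4, with PFKL rising from 21.7% and 21.3% to 34.3% and 35.4%. These shares are descriptions without a test, and they rest on the longest transcript of each gene.

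**Figure D4:**
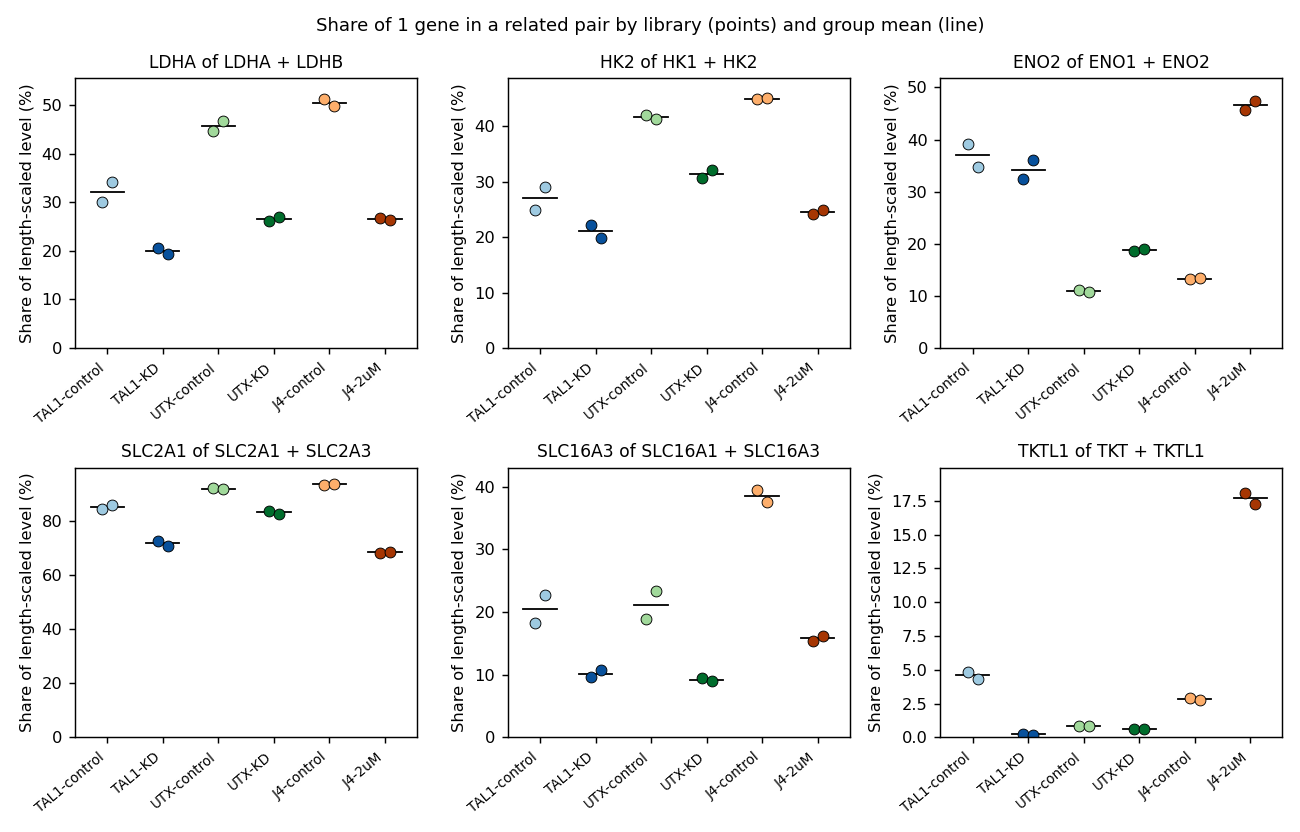
Share (%) of 1 gene in the per-kilobase level of a related pair, by library (points) with the group mean (line). LDHA, HK2, SLC2A1 and SLC16A3 make a smaller share in J4-2uM than in J4-control, and ENO2 and TKTL1 a larger one, 45.7% and 47.4% and 18.1% and 17.3%.

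The transporters stand at the entry and exit of the pathway. SLC2A1 (ENSG00000117394) encodes GLUT1, the glucose carrier known for serving proliferating T cells. It stood at 157 and 149 CPM in J4-control and 41.9 and 40.5 in J4-2uM, a 3.70-fold fall (-1.89 ± 0.04, adjusted p = 2.57e-13). In the UTX-labelled libraries it stood at 117 and 134 CPM against 55.1 and 52.6 (-1.24 ± 0.05, adjusted p = 2.79e-12). SLC2A1 stood in the TAL1-labelled libraries at 47.3 and 56.5 CPM against 49.6 and 54.8, which overlap, and the difference was -0.01 with a 95% interval of -0.26 to 0.23.

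SLC2A3, which encodes the high-affinity carrier GLUT3, went the other way. It stood at 13.7 and 12.5 CPM in J4-control and 23.6 and 22.5 in J4-2uM (0.83 ± 0.06, adjusted p = 1.74e-08). It rose from 10.6 and 11.2 CPM to 22.6 and 27.2 in the TAL1-labelled libraries (1.17 ± 0.12, adjusted p = 0.000447), with no overlap in either. In the UTX-labelled libraries it was 12.2 and 15.0 CPM against 12.9 and 13.5, not called, with an interval of -0.21 to 0.11. SLC2A1 made 93.3% and 93.5% of the pair in J4-control and 68.1% and 68.4% in J4-2uM, so it remained the larger of the pair. SLC2A3 has a near-identical relative, SLC2A14, and how reads with several positions were counted is not given in the sources used here, so its values are uncertain. The same holds for PGAM1 and its copy PGAM4. Other members have pseudogenes among the counted genes, such as GAPDH with 30, LDHA with 5 and TPI1 with 3. Their summed level was at most 0.359%, 0.433% and 1.77% of the parent gene's CPM in any library. How many reads with several positions those parents gained or lost was not tested.

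At the exit, SLC16A3 encodes MCT4, known as the lactate exporter of glycolytic cells, and SLC16A1 encodes MCT1. SLC16A3 (ENSG00000141526) stood at 87.0 and 79.2 CPM in J4-control and 14.5 and 14.5 in J4-2uM, a 5.70-fold fall (-2.51 ± 0.05, adjusted p = 2.11e-13). It stood at 32.4 and 42.0 CPM in UTX-control and 12.3 and 12.2 in UTX-KD, a 3.06-fold fall (-1.62 ± 0.09, adjusted p = 1.52e-10). SLC16A3 went in the TAL1-labelled libraries from 19.0 and 25.4 CPM to 11.3 and 11.7 (-0.97 ± 0.15, adjusted p = 0.00163). The treated libraries of all 3 comparisons ended between 11.3 and 14.5 CPM, although the control libraries began between 19.0 and 87.0. SLC16A1 changed less, by -0.77 ± 0.04 with GSK-J4 and -0.22 ± 0.03 in the UTX-labelled comparison. In the TAL1-labelled one it stood at 96.9 and 88.1 CPM against 76.9 and 78.3 (0.23 ± 0.08, adjusted p = 0.0469), a call lost under total counts (0.09). At values of 0.20 to 0.25 it was also lost under either other filter on low counts, without either TAL1-control library and in the Wald test of DESeq2 (adjusted p = 0.0530).

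The 2 kinases phosphorylate and switch off pyruvate dehydrogenase. PDK1 (ENSG00000152256), known as a target of HIF1, was lower in all 3 comparisons. It went from 75.6 and 90.8 CPM to 34.3 and 28.5 in the TAL1-labelled libraries (-1.43 ± 0.13, adjusted p = 0.000322). It went from 102 and 115 to 52.5 and 53.4 CPM in the UTX-labelled ones (-1.05 ± 0.04, adjusted p = 6.24e-12) and from 139 and 130.5 to 45.4 and 45.6 CPM with GSK-J4 (-1.56 ± 0.04, adjusted p = 1.58e-12). No control library overlapped a treated one. The UTX-labelled fall differed from the TAL1-labelled one by 0.34 (95% interval 0.01 to 0.68), which was not called (adjusted p = 0.0837) but passed under total counts (0.60, 0.0182), without TAL1-control replicate 1 (0.47, 0.0418) and without TAL1-KD replicate 1 (0.48, 0.000486). The GSK-J4 fall differed from the TAL1-labelled one by -0.16 (-0.47 to 0.15, adjusted p = 0.357), and passed without TAL1-KD replicate 2 (-0.29, 0.00994). PDK3 was lower in the UTX-labelled and GSK-J4 comparisons, at -0.48 and -0.70, and not called in the TAL1-labelled one (0.33, adjusted p = 0.0520).

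In the pentose phosphate branch PGD, TKT and TALDO1 rose in the TAL1-labelled libraries and fell with GSK-J4, and TKTL1 did the reverse. The summed level of the branch went from 1138 and 1243 CPM to 1947 and 2308 in the TAL1-labelled libraries, from 1512 and 1537 to 1377 and 1307 in the UTX-labelled ones and from 1354 and 1346 to 831 and 789.8 with GSK-J4. In the oxidative arm PGLS hydrolyses the lactone and PGD makes NADPH and ribulose phosphate. PGD (ENSG00000142657) rose from 256 and 276 CPM to 459.6 and 534 in the TAL1-labelled libraries (0.88 ± 0.10, adjusted p = 0.000674). It fell from 371 and 372 CPM to 220.3 and 208 with GSK-J4 (-0.79 ± 0.03, adjusted p = 1.90e-10) and by -0.19 ± 0.03 in the UTX-labelled comparison. PGLS was lower in the TAL1-labelled comparison, 36.4 and 36.5 CPM against 26.9 and 22.5 (-0.58 ± 0.11, adjusted p = 0.00363), and with GSK-J4 (-1.14 ± 0.04), but not called in the UTX-labelled one (0.06). PGLS and PGD thus went opposite ways in the TAL1-labelled libraries.

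In the non-oxidative arm RPIA and RPE interconvert the pentose phosphates, and both changed little. RPIA changed by -0.14 in the UTX-labelled and -0.24 in the GSK-J4 comparison, calls lost under total counts (-0.04 and -0.06). Without UTX-KD replicate 2 the UTX-labelled value was -0.071 and not called (adjusted p = 0.0944). RPIA was at 0.22 in the TAL1-labelled comparison (adjusted p = 0.0660). RPE changed by -0.22 in the UTX-labelled comparison and was not called with GSK-J4 (-0.08) or in the TAL1-labelled one (-0.25, adjusted p = 0.0584). The carbon-shuffling enzymes moved more. TKT (ENSG00000163931), transketolase, rose from 583 and 658 CPM to 1089.5 and 1363 in the TAL1-labelled libraries (0.96 ± 0.13, adjusted p = 0.00120), and the treated libraries were well above both controls. It fell from 617 and 605 CPM to 347 and 329 with GSK-J4 (-0.85 ± 0.03, adjusted p = 8.81e-11) and by -0.31 ± 0.03 in the UTX-labelled comparison. TALDO1, transaldolase, rose from 148 and 154 to 261 and 274 CPM in the TAL1-labelled libraries (0.80 ± 0.08, adjusted p = 0.000427). It fell from 191 and 192 to 106 and 97.8 CPM with GSK-J4 (-0.90 ± 0.04, adjusted p = 1.54e-10), while its UTX-labelled libraries, 221 and 226 against 229 and 220.0 CPM, overlapped.

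TKTL1 (ENSG00000007350), a relative of transketolase, moved opposite to TKT in the TAL1-labelled and GSK-J4 comparisons. It fell from 10.7 and 10.8 CPM to 1.02 and 0.983 in the TAL1-labelled libraries, 757 and 693 reads against 56 and 55, a 10.9-fold fall (-3.45 ± 0.15, adjusted p = 9.77e-05). With GSK-J4 it rose from 6.66 and 6.22 CPM to 27.8 and 24.9, 378 and 479 reads against 2311 and 1942, a 4.13-fold rise (2.04 ± 0.07, adjusted p = 1.62e-11). In the UTX-labelled libraries it went from 2.09 and 2.14 to 1.32 and 1.22 CPM (-0.76 ± 0.14, adjusted p = 0.000173). Groups did not overlap in any comparison, and the 3 control groups differed among themselves before treatment. As a share of the TKT and TKTL1 level per kilobase it was 2.89% and 2.76% in J4-control and 18.1% and 17.3% in J4-2uM, and 4.84% and 4.34% in TAL1-control against 0.258% and 0.199% in TAL1-KD. With mean transcript lengths the group share was smaller, 1.98% in J4-control and 13.0% in J4-2uM, and 3.23% in TAL1-control and 0.159% in TAL1-KD. TKTL2, an intronless relative, had at most 1 read in any library and was not tested.

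**Figure D5:**
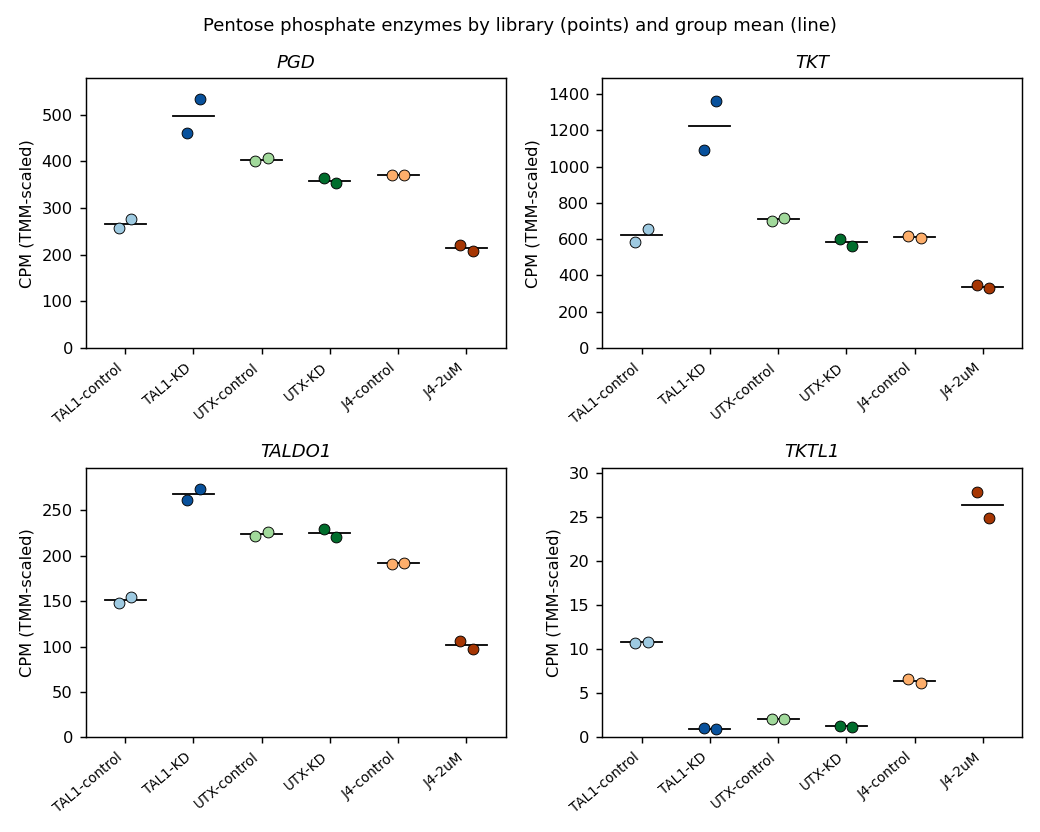
TMM-scaled CPM per library (points) and group mean (line) of PGD, TKT, TALDO1 and TKTL1 in the 6 groups. PGD, TKT and TALDO1 are highest in TAL1-KD and lowest in J4-2uM, while TKTL1 is highest in J4-2uM, at 27.8 and 24.9 CPM, and lowest in TAL1-KD, at 1.02 and 0.983.

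Each pair of responses was then compared by the difference of their log2 fold changes over 8 libraries. The comparisons share no control libraries. Between the UTX-labelled and TAL1-labelled responses, 23 members differed towards lower in the UTX-labelled one and 2 towards higher, against 25% and 25.1% of 17605 genes. The 2 higher members were TKTL1 (2.66 ± 0.17, adjusted p = 1.71e-05) and PGLS (0.61 ± 0.11, adjusted p = 0.00192). HK2 differed by -0.99 ± 0.15 and LDHA by -1.02 ± 0.14, so these responses differed by more than the spread. PFKL, lower at -0.25 (adjusted p = 0.0468), did not pass with DESeq2 size factors (-0.25, 0.0515) or the replicate block (-0.25, 0.0513). A mean count of at least 50 gave it -0.22 (0.0707), also not passing. SLC16A1, SLC16A3 and RPIA, at -0.48, -0.69 and -0.38, did not pass under total counts (-0.21, -0.42 and -0.11). PFKP did not pass, at 0.05 with a 95% interval of -0.18 to 0.29. Without TAL1-KD replicate 1 the differences of PFKM, PFKP, PDK1 and ENO2 were larger in size, at 0.48, 0.16, 0.48 and -0.41. With all 8 libraries they stood at 0.32, 0.05, 0.34 and -0.26.

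Between the GSK-J4 and TAL1-labelled responses, 24 members differed towards lower with GSK-J4 and 3 towards higher, against 26.3% and 27.6% of 18188 genes. The 3 were TKTL1 (5.46 ± 0.15, adjusted p = 2.20e-09), ENO2 (0.45 ± 0.13, adjusted p = 0.0154) and PFKM (0.45 ± 0.16, adjusted p = 0.0394). The ENO2 call was lost without J4-control replicate 2, either J4-2uM library or TAL1-control replicate 2, at values of 0.42 to 0.46. The PFKM call was lost without any library but TAL1-KD replicate 1, at values of 0.30 to 0.49. Among the 24, SLC2A3 (-0.37, adjusted p = 0.0404) did not pass with DESeq2 size factors (-0.36, 0.0531) or under total counts (-0.02, 0.881). It also did not pass with a mean count of at least 50 (-0.33, 0.0590). PFKP, PGLS and RPIA did not pass under total counts, at -0.24, -0.24 and -0.13. Between GSK-J4 and the UTX-labelled response, 23 differed towards lower with GSK-J4 and 4 towards higher, against 30.2% and 28.3% of 18186 genes. Among the 23, the difference was -1.26 ± 0.06 for HK2, -1.12 ± 0.05 for PGK1 and -0.90 ± 0.06 for LDHA. TPI1 and ALDOC differed by less, -0.28 ± 0.06 and -0.33 ± 0.08. The 4 towards higher were ENO2 (0.72 ± 0.05), SLC2A3 (0.89 ± 0.10), TKTL1 (2.81 ± 0.15) and RPE (0.15 ± 0.06). The RPE call was lost when any 1 of 6 of the 8 libraries was left out, the value standing at 0.086 without J4-2uM replicate 2 (adjusted p = 0.227) and 0.094 without UTX-KD replicate 1 (0.223). PFKL, PFKM and RPIA did not pass, with differences of 0.03 (95% interval -0.08 to 0.14), 0.13 (-0.10 to 0.37) and -0.09 (-0.20 to 0.02), though RPIA passed without UTX-KD replicate 2 (-0.17, adjusted p = 0.0135).

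Set side by side, 12 members were lower in both the UTX-labelled and GSK-J4 comparisons and not called in the TAL1-labelled one, among them both hexokinases, TPI1, PGK1, ENO1, PKM and SLC2A1. That pattern was found in 7.05% of the 16103 genes tested in all 3 comparisons. The TAL1-labelled side of that pattern depended on the setting. With the replicate block, HK2 of these 12 passed as lower in the TAL1-labelled comparison, and GPI, ENO1 and PDK3 as higher. The Wald test of DESeq2 called GPI and PDK3 higher there. Removing GC content and length trends called GPI, PDK3 and RPIA higher. PDK3 was also called higher with DESeq2 size factors, GPI without a filter on low counts, and HK2 was called lower under total counts. A further 7 were lower in those comparisons and higher in the TAL1-labelled one, a pattern of 4.18% of genes: ALDOA, GAPDH, PGAM1, LDHB, SLC16A1, PGD and TKT. The 4 members lower in all 3, against 6.98% of genes, were PFKP, LDHA, SLC16A3 and PDK1.

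Other genes of carbohydrate entry and pyruvate handling were called in both directions in each comparison. Of 63 listed, 61 matched and 45, 44 and 44 were tested. In the TAL1-labelled comparison 10 were higher and 13 lower (22.2% and 28.9%), against 26.3% and 27.9% of all genes. The counts were 10 and 20 in the UTX-labelled one (22.7% and 45.5%), against 25.2% and 25.3%. With GSK-J4 they were 12 and 21 (27.3% and 47.7%), against 37.9% and 36.9%. The medians were 0.0085, -0.08 and -0.12 in that order. PFKFB4 and PFKFB3 make or degrade the sugar bisphosphate that activates phosphofructokinase. PFKFB4 was lower in the UTX-labelled and GSK-J4 comparisons, at -2.18 ± 0.08 and -2.20 ± 0.04, and so was PFKFB3, at -0.85 and -1.26. DLAT, a core subunit of pyruvate dehydrogenase, was lower with GSK-J4 and in the UTX-labelled comparison, at -1.48 and -0.42. SLC2A6 was lower with GSK-J4, at -1.02, and SHPK, a sugar kinase, in the UTX-labelled comparison, at -0.49. SLC16A4 rose by 1.22 in the UTX-labelled and by 1.48 in the GSK-J4 comparison, from mean levels of 0.599 and 1.03 CPM. With GSK-J4 ENO3, PDK2 and SLC16A7 rose by 0.64, 0.49 and 0.44, and in the UTX-labelled comparison H6PD, ENO3 and RBKS rose by 0.44, 0.33 and 0.29. In the TAL1-labelled comparison PDP1, which reactivates pyruvate dehydrogenase, was lower, at -1.04, and so were GPD2, LDHD and RBKS, at -0.82, -0.80 and -0.76. BSG, the chaperone of the monocarboxylate transporters, rose there by 0.90, PDP2 by 0.67, G6PC3 by 0.59 and TIGAR by 0.58.

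Of 10 regulators listed, 9 matched and all 9 were tested, and TXNIP has no value here. HIF1A, the oxygen-regulated subunit of HIF1, was higher at the mRNA level in each comparison, by 0.51 ± 0.08, 0.20 ± 0.03 and 0.20 ± 0.04 in the order TAL1-labelled, UTX-labelled, GSK-J4. ARNT, its partner, rose by 0.37, 0.20 and 0.36. MYC rose by 0.30 ± 0.08 in the TAL1-labelled comparison, fell by 0.21 ± 0.03 in the UTX-labelled one and fell by 3.44 ± 0.04 with GSK-J4. EGLN1 and EGLN3, the prolyl hydroxylases that mark HIF for degradation and are themselves known HIF targets, fell by 0.85 and 0.39 in the UTX-labelled comparison and by 1.03 and 1.88 with GSK-J4. EPAS1 rose by 0.70 and 0.91 there, VHL fell by 0.30 in the TAL1-labelled comparison, and MLXIP rose by 0.08 in the UTX-labelled one. Of the 9 regulators, 3 were called higher and 1 lower in the TAL1-labelled comparison, against 26.3% and 27.9% of all genes. The counts were 4 and 3 in the UTX-labelled one, against 25.2% and 25.3%, and 3 and 6 with GSK-J4, against 37.9% and 36.9%. Not every regulator called with GSK-J4 is given a value here.

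The authors' deposited table, tested with DESeq2, called nearly the same members. Its 26 lower members of the UTX-labelled comparison were the 26 called here. With GSK-J4 it shared the 25 lower members and 3 of the 4 higher ones, PFKM being at an adjusted p of 0.169 in the authors' deposited table. In the TAL1-labelled comparison it shared 8 higher and the 6 lower members, and the authors' deposited table also called GPI and PDK3 higher but not SLC16A1 (adjusted p = 0.0542).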

How the data were processed

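The deposited tables hold raw read counts per Ensembl gene for 12 Jurkat libraries, 1 table per comparison. Per the submitters' processing notes, the authors used TopHat2 2.0.12, HTSeq 0.6.1p1, DESeq2 and the hg19 build. The annotation, strandedness and handling of reads with several positions are not given in the sources used here. The log2 fold changes and p-values in the authors' deposited tables come from their own comparisons and were used only for the closing paragraph of the results.

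Counts were tested in each table over its 4 libraries with the quasi-likelihood F test of edgeR 4.0.16 (limma 3.58.1, R 4.3.3), with filterByExpr, TMM scaling and Benjamini-Hochberg adjustment over all genes tested. A gene was called at an adjusted p under 0.05, errors are SE, and intervals are 95%. Differences between responses were contrasts over 8 libraries. The alternatives were DESeq2 1.42.0 (its size factors and its Wald test), total-count scaling, 2 other filters on low counts, stricter thresholds, removal of GC content and length trends, a replicate block and leaving out each library. The scripts were tested on simulated data. Symbols and transcript lengths came from reference tables on another build, so no coordinate of the counts is given.

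The members and lists were chosen with earlier results of these data known. All 31 members are named. Of the other pathway genes, up to 4 called genes per comparison and direction are named, those with the largest log2 fold change in size and a mean of at least 1 CPM. HIF1A and MYC are named in each comparison, and other regulators were named after their values were seen. Each library counted as 1 replicate. Libraries of the same group differed by more than sampling noise, which cannot tell separate cultures from technical spread.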

Additional observations from a re-analysis of the deposited data

Results flagged for a closer look

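Some members were called in opposite directions in 2 of the comparisons, and the difference between the responses itself passed edgeR's quasi-likelihood test. Between the UTX-labelled and TAL1-labelled responses these were ALDOA (difference of log2 fold changes -1.27), GAPDH (-0.92), PGAM1 (-1.22), LDHB (-0.73), SLC16A1 (-0.48), PGD (-1.10) and TKT (-1.30), each higher in the TAL1-labelled comparison and lower in the UTX-labelled one. Between the GSK-J4 and TAL1-labelled responses the same 7 genes differed, by -1.91 for ALDOA, -1.58 for GAPDH, -1.70 for PGAM1, -1.36 for LDHB, -1.03 for SLC16A1, -1.69 for PGD and -1.84 for TKT. TALDO1 joined them at -1.73. TKTL1 differed by 5.46 in the other direction, being lower in the TAL1-labelled libraries and higher with GSK-J4. Between the GSK-J4 and UTX-labelled responses ENO2 differed by 0.72 and TKTL1 by 2.81, both higher with GSK-J4 and lower in the UTX-labelled libraries. The TAL1-labelled calls of ALDOA, GAPDH, LDHB and SLC16A1 were lost without either TAL1-control library, at values of 0.22 to 0.65 that stayed positive, and that of PGAM1 without TAL1-control replicate 1 (0.49, adjusted p = 0.0583). The difference of SLC16A1 between the UTX-labelled and TAL1-labelled responses did not pass under total counts (-0.21, adjusted p = 0.143).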

How the results depend on the processing

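Of the member values under the alternatives, 260 in the TAL1-labelled, 317 in the UTX-labelled and 324 in the GSK-J4 comparison kept direction and side of the threshold, against 70, 13 and 6 that did not, and no called member reversed in these 3. Scaling by total counts alone gave 2 higher members in the UTX-labelled comparison and 4 in its difference from the TAL1-labelled response, against 37.6% and 38.1% of all genes. Under it TPI1 (-0.055), PGK1 (-0.042) and ENO2 (-0.057) reversed in the TAL1-labelled comparison, SLC2A3 (0.045) and TALDO1 (0.077) in the UTX-labelled one, RPE (0.090) with GSK-J4, PFKL (0.017, called at -0.25 with TMM) and ENO2 (0.015) in the difference of UTX-labelled and TAL1-labelled responses, and PFKL (0.12) and PDK1 (0.17) in that of GSK-J4 and TAL1-labelled ones. In the TAL1-labelled comparison DESeq2 size factors gave PFKL 0.021 and SLC2A1 0.011, and its Wald test gave 0.017 and 0.0070. Removing GC content and length trends gave TPI1 -0.042 and RPE 0.051 there and TALDO1 0.00021 in the UTX-labelled comparison. A minimum log2 fold change of 0.5 left 16 lower members in the UTX-labelled comparison, by its construction, against 3.92% of all genes. An adjusted p under 0.01 left 1 higher in the difference of GSK-J4 and TAL1-labelled responses, against 20.7% of all genes.

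Leaving out each library in turn gave 4 to 17 higher members in the TAL1-labelled comparison, 0 to 1 in the UTX-labelled one, 2 to 5 in the UTX-labelled minus TAL1-labelled difference and 1 to 4 in the GSK-J4 minus TAL1-labelled one. The share of all genes called higher also moved with the library left out, so these counts alone show no change particular to the members. In the TAL1-labelled comparison PFKL then ranged from -0.075 to 0.081, ALDOC from -0.56 to 0.20 and TPI1 from -0.038 to 0.23. PGK1 ranged there from -0.034 to 0.25, ENO2 from -0.069 to 0.25 and SLC2A1 from -0.14 to 0.12. In the UTX-labelled one SLC2A3 ranged from -0.20 to 0.097 and TALDO1 from -0.048 to 0.013. In the UTX-labelled minus TAL1-labelled difference PFKP ranged from -0.047 to 0.16 and RPE from -0.099 to 0.10, and in the GSK-J4 minus UTX-labelled one PFKL from -0.028 to 0.070. The cause of these reversals was not tested.

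With the replicate block, 12 members were higher and 8 lower in the TAL1-labelled comparison, 0 and 26 in the UTX-labelled one and 4 and 25 with GSK-J4. The shares of all genes called higher and lower with the block were 27.5% and 30.5%, 24.7% and 24.8%, and 38.1% and 37.2%. For the differences the block gave 2 and 22, 3 and 24, and 4 and 23, against 24.7% and 24.3%, 27.7% and 26.3%, and 28.2% and 29.8% of all genes. Same-numbered libraries deviated together with r = 0.17, 0.14 and -0.08, over 2 pairs each, so the numbers are not shown to pair the samples. Precision is limited by 2 libraries per group, and for members with few reads by depth as well. These include TKTL2, TKTL1, at 56 and 55 reads in TAL1-KD and 95 and 84 in UTX-KD, and PFKM, at 170 to 536 reads per library. In the UTX-labelled comparison the SE was 0.14 for TKTL1 and 0.08 for PFKM, against 0.04 for PFKL.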
